A study of Mus musculus with 27 samples.

Results

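The comparison of 20 weeks with 10 days of age asks which spleen transcripts matured differently in NOD mice and in their NOD.B10 controls. Its members were the 5 arrays labelled 10 days and the 5 arrays labelled 20 weeks, 10 of the 27 arrays of the series. NOD (NOD/LtJ) is an inbred strain that develops autoimmune diabetes, and NOD.B10 (NOD.B10Sn-H2b/J) is a congenic strain on the same background that carries another haplotype of the H2 region, the mouse major histocompatibility complex. All mice were female and no treatment is named. Each 2-colour array carried NOD spleen RNA in the green dye (Cy3) and NOD.B10 control RNA in the red dye (Cy5), and the dyes were never exchanged. The design text lists control mice of 10 days (n = 10) and of 20 weeks (n = 10). The labels do not say how they were pooled or which of them each array received. The disease label reads diabetic on all 10 arrays, the 10-day ones included, and was not used.

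The mouse spleen changes its work after birth. In the first weeks its red pulp still makes red cells, granulocytes and platelets, and with age this blood formation recedes while T cells, B cells and antigen-presenting cells fill the white pulp. NOD mice are known for immune cell infiltration of the pancreatic islets, which the NOD.B10 haplotype largely prevents. On these arrays a gene's strain ratio is the log2 of the NOD over the NOD.B10 signal of 1 spot. A change of the ratio with age can come from either strain, so the level of each dye was followed as well, as its log2 signal after subtracting the 75th percentile found for the same dye and array. A bias of a probe toward 1 dye, if constant on the log2 scale, cancels in the difference between ages. It does not cancel in a ratio at 1 age, so the sign of a single ratio does not say which strain was higher.

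Replicates 1 to 3 of 10 days and all 5 arrays of 20 weeks were scanned on 1 day. Replicates 4 and 5 of 10 days were scanned on 2 other days with other software versions. The fits of the ratio and of each dye were repeated without them. Counts of list members that changed in a single dye, and list medians of dye changes, use all 10-day arrays and were not repeated so. Replicate 4 stood apart, with a correlation across genes of 0.865 to 0.916 to the other 10-day arrays in the NOD.B10 dye, against 0.967 to 0.986 among replicates 1 to 3. Of 31 single-array outliers found among the values examined, 22 lay on replicate 5. Median signals spanned 155 to 513 for NOD and 160 to 502 for NOD.B10. The share of spots well above background spanned 68.4% to 87.3% for NOD and 52.4% to 82.6% for NOD.B10. NOD.B10 profiles of the 5 arrays at 20 weeks correlated at 0.982 to 0.991, against 0.948 to 0.971 for NOD. Nothing states that the samples came from separate mice, so the p-values measure the spread between arrays, which for the controls may be technical.

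Of 25103 genes tested, 2281 (9.09%) changed their strain ratio from 10 days to 20 weeks, meaning a Benjamini-Hochberg adjusted p under 0.05 with limma and a log2 change of at least 1. The ratio was higher at 20 weeks for 635 genes (2.53%) and lower for 1646 (6.56%). On the shared scan day 1808 genes changed (7.2%), 501 higher (2%) and 1307 lower (5.21%). Both fits called 1626 genes with the same sign (6.48%), 407 higher (1.62%) and 1219 lower (4.86%). The 5 arrays of an age did not overlap with those of the other for 6126 genes (24.4%), 2359 of them higher at 20 weeks (9.4%) and 3767 lower (15%). Genes named below for the largest change of their dye class had to be among them. The median change over all genes was -0.06. With normexp background correction and loess, which shrinks the ratios of dim spots, 480 genes changed, of which 42.3% were higher, against 27.8%.

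Either dye could carry a change. The NOD dye changed for 3225 genes (12.8%), 1713 up (6.82%) and 1512 down (6.02%), and the NOD.B10 dye for 2937 (11.7%), 1756 up (7%) and 1181 down (4.7%). Of the 2281 genes with a changed ratio, 603 (26.4%) changed in the NOD dye alone and 557 (24.4%) in the NOD.B10 dye alone. Both dyes changed in the same direction by unequal amounts for 100 genes and in opposite directions for 12. For 1009 genes (44.2%) neither dye passed alone, although the ratio, in which spot and array effects cancel, did. The NOD dye held the larger change for 1314 genes and the NOD.B10 dye for 967, but among those measured in both dyes on every array the order turned, with 589 for NOD and 718 for NOD.B10. Among genes whose ratio rose in both fits and that were clear of background throughout the 10 arrays, the larger change lay with NOD.B10 for 188 and with NOD for 142. Among those whose ratio fell it lay with NOD.B10 for 308 and with NOD for 357. Of the 1348 genes that changed in both dyes, which were 41.8% of the NOD and 45.9% of the NOD.B10 changes, 1336 went the same way and 112 had a changed ratio. Scaling each dye to its median in place of its 75th percentile moved the share of rising genes among the changed ones. For NOD it went from 53.1% to 35.8%, and for NOD.B10 from 59.8% to 49.2%. The median change of all genes went from 0.04 to -0.08 for NOD and from 0.08 to -0.02 for NOD.B10.

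**Figure D1:**
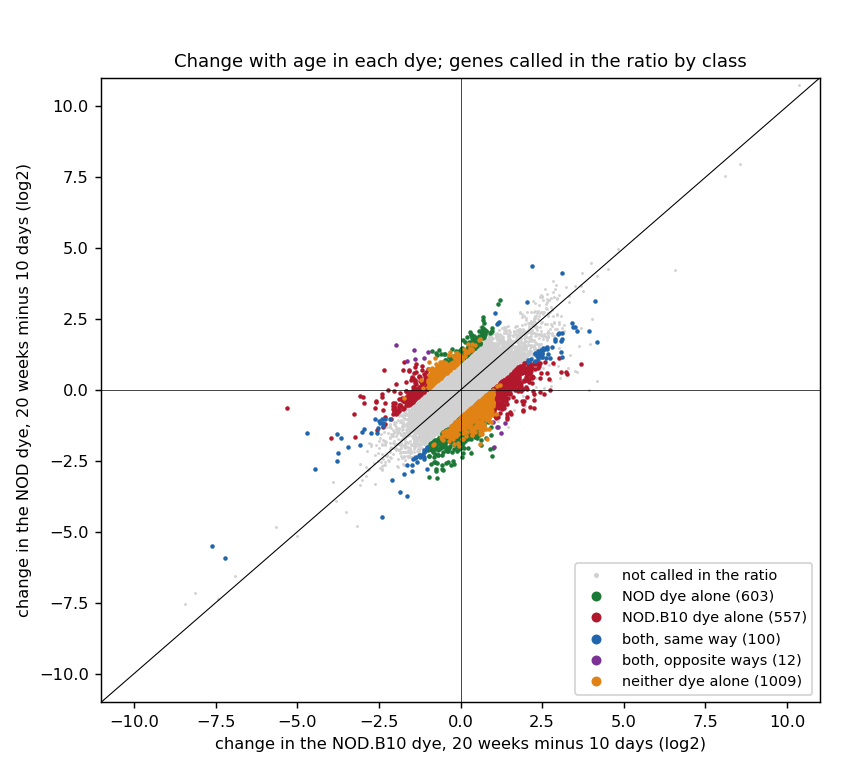
Each point is 1 of 25103 genes, with its change from 10 days to 20 weeks in the NOD.B10 dye (horizontal, log2) and in the NOD dye (vertical, log2), coloured by the class of its ratio change. Genes on the diagonal matured alike in both strains, and the 557 genes in red lie off it through the NOD.B10 dye and the 603 in green through the NOD dye.

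Gene lists of spleen cell types and programmes fell into groups. The counts of list members given below stand against 2.53% of all genes higher in ratio and 6.56% lower. In the lists for neutrophils, haem synthesis and red cells the median ratio change was 1.55, 1.26 and 1.13 log2 units. In lists for T cells, cytotoxic cells and regulatory T cells it was at -0.65, -0.75 and -0.68, against -0.06 over all genes. With all 10-day arrays the NOD.B10 dye held the larger change of the former. Its medians were -1.74, -1.65 and -1.29, against 0.20, -0.37 and -0.11 in the NOD dye. With the 10-day arrays of the shared scan day alone, the NOD dye fell as well, but less. The mean list levels there went from 1.66, 6.54 and 4.54 to 1.43, 5.38 and 4.10 in NOD. In NOD.B10 they went from 2.23, 6.36 and 4.48 to 0.82, 4.36 and 3.04. The T cell median was 1.96 in the NOD.B10 dye and 1.42 in the NOD dye, a change of the same direction in both strains. In a bulk sample, fewer cells of a type and less RNA per cell cannot be told apart.

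**Figure D2:**
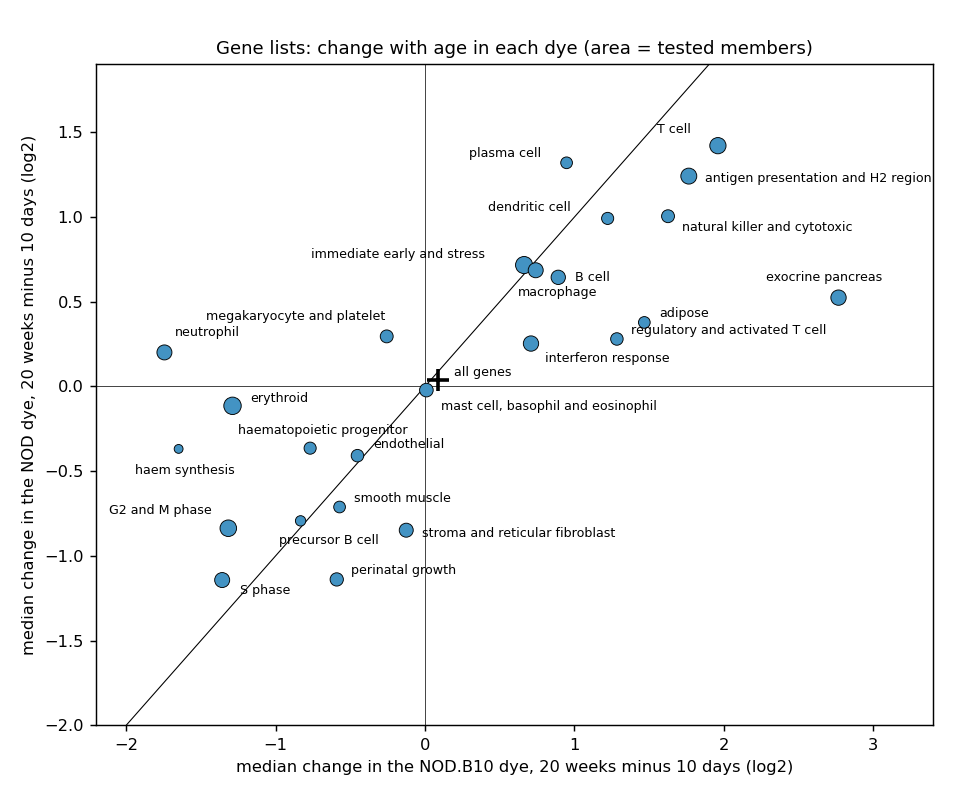
Each circle is a gene list, placed at the median change of its tested members from 10 days to 20 weeks in the NOD.B10 dye (horizontal, log2) and in the NOD dye (vertical, log2), with an area that grows with the number of members. The neutrophil and erythroid lists lie at -1.74 and -1.29 on the horizontal axis and near 0 on the vertical one, and the T cell list is at 1.96 and 1.42.

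Most neutrophil genes fell with age in the NOD.B10 dye, and few passed in the NOD dye with all 10-day arrays. Of 23 tested members of the neutrophil list 15 rose in ratio and 0 fell, 12 on the shared scan day. In the NOD.B10 dye 17 fell and 1 rose, and in the NOD dye 3 fell and 2 rose. Ngp, the neutrophilic granule protein, had the largest change of the list. Its log2 ratio was -0.63, -0.82, -0.92, -0.86 and -1.07 on the 10-day arrays and 2.50, 2.54, 2.85, 2.93 and 2.50 at 20 weeks. No array of 1 age reached the range of the other, which the rule that named Ngp required. The change was 3.53 ± 0.18 (SE, with limma adjusted p = 1.1e-11), or 11.5-fold. It was split over both dyes, with a rise of 1.59 in NOD and a drop in NOD.B10 (-1.97). Ngp was thus among the 12 genes whose dyes moved in opposite directions.

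Camp, which encodes the antimicrobial peptide cathelicidin, changed in the NOD.B10 dye. Its level there was 7.90, 7.13, 7.45, 6.60 and 7.38 at 10 days and 4.58, 4.12, 4.42, 4.14 and 4.29 at 20 weeks. In the NOD dye it was 7.30, 6.39, 6.54, 5.83 and 6.52 at 10 days and 6.19, 6.40, 6.14, 6.49 and 6.07 at 20 weeks. The 2 ages were apart in the control, whose spread between arrays may be technical, and overlapped in NOD. The NOD.B10 level was 7.91-fold lower at 20 weeks, and the ratio rose by 2.69 ± 0.23 (adjusted p = 5.7e-09). Anxa1, the annexin that restrains neutrophil entry into tissue, followed the same course, with a ratio change of 2.85 ± 0.16 (adjusted p = 1.5e-11) and dye changes of -3.09 in NOD.B10 and -0.21 in NOD.

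The proteases of primary granules behaved alike. Elane, neutrophil elastase, stood at log2 ratios of -1.43, -1.41, -1.37, -1.42 and -1.69 at 10 days and of 0.65, 1.54, 1.22, 1.53 and 1.25 at 20 weeks. The ages did not overlap, as the rule required, and the change of 2.70 was 1.60 with normexp. Ctsg, cathepsin G, rose in ratio by 2.44 ± 0.24, Prtn3, proteinase 3, by 2.15 and Mpo, myeloperoxidase, by 1.55. Mpo fell in both dyes, by 1.38 in NOD and by 2.97 in NOD.B10, where 1 of 5 spots was saturated at 10 days. Lcn2, the iron-binding lipocalin, rose by 2.45, Ltf, lactoferrin, by 2.22 and S100a8, a calgranulin subunit, by 2.36. S100a9, its partner, had a ratio change of 0.29 (adjusted p = 0.32), but its NOD.B10 spot was saturated on 5 of 5 arrays at 10 days, so its change was not measured. Receptors of mature neutrophils had other values: Cxcr2, a chemokine receptor, was at -0.06 (adjusted p = 0.83), and Csf3r, the receptor for granulocyte colony-stimulating factor, rose in both dyes, by 2.13 in NOD and 1.32 in NOD.B10. With normexp the list's median ratio change was 0.84, with 11 members higher. Chil4, a chitinase-like protein outside the list, changed in opposite directions, with 1.42 in NOD and -1.41 in NOD.B10 and a ratio change of 2.80 ± 0.17 (adjusted p = 7e-11).

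**Figure D3:**
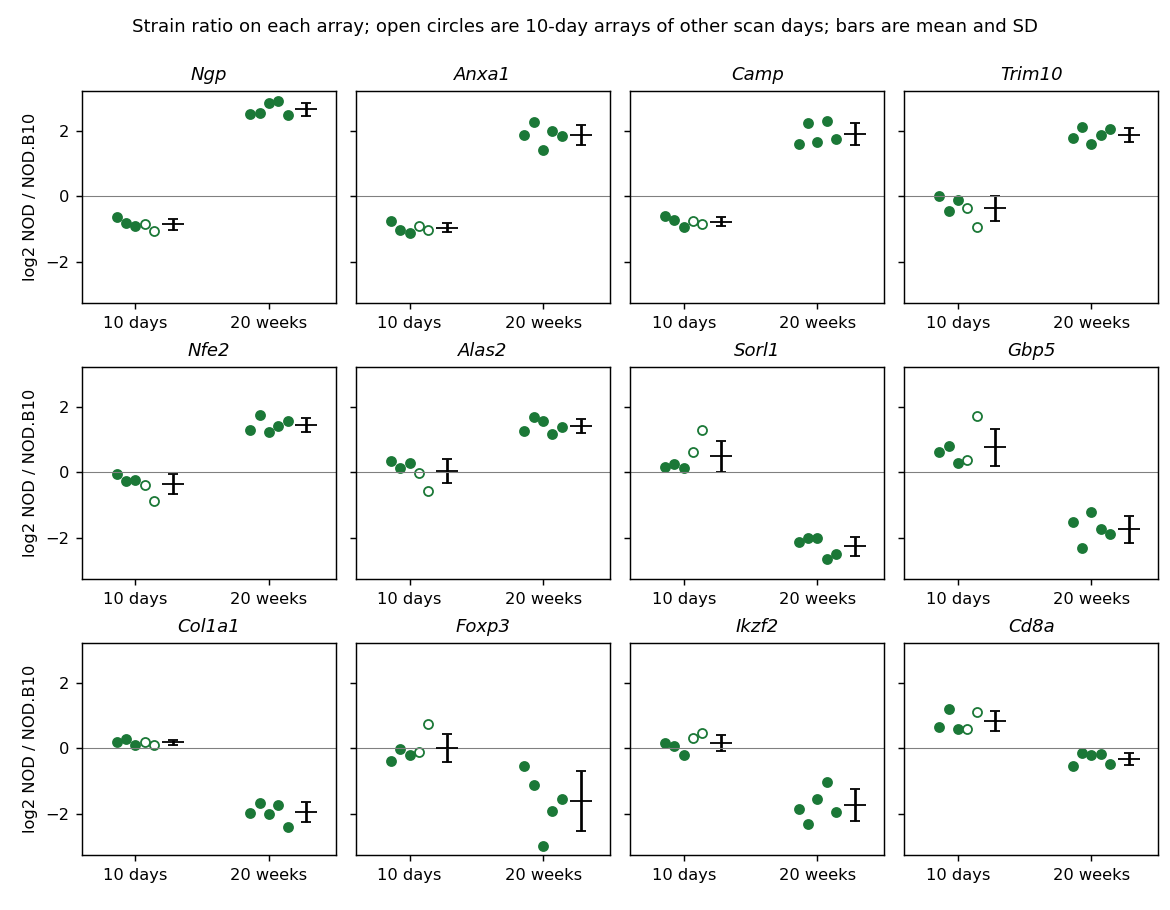
Log2 ratio of NOD over NOD.B10 (vertical) on each array at 10 days and 20 weeks for 12 genes, with the mean and SD of the 5 arrays beside them and open circles for the 10-day replicates 4 and 5. The ages do not overlap for Ngp, Anxa1 or Camp, whose ratios rose, nor for Sorl1, Gbp5 or Col1a1, whose ratios fell. The rule that named these genes required it. The gap is narrow for Foxp3, with a lowest 10-day ratio of -0.38 and a highest 20-week ratio of -0.54.

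Genes of red cell formation also fell in the NOD.B10 dye, and few passed in the NOD dye with all 10-day arrays. Of 31 tested members of the erythroid list 20 rose in ratio and 0 fell, and all 31 estimates were positive. In the NOD.B10 dye 22 fell and 0 rose, and in the NOD dye 3 fell and 2 rose. On the shared scan day 11 rose in ratio, as they did with scan day as a block, and the medians were 0.98 and 1.04. Without replicate 5 of 10 days 14 rose, and without replicate 4 there were 19.

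Trim10, an erythroid ring-finger protein, had the largest change, at 2.25 ± 0.35 (adjusted p = 2.2e-05). Its log2 ratio was 0.01, -0.45, -0.10, -0.35 and -0.96 at 10 days and 1.77, 2.11, 1.58, 1.89 and 2.06 at 20 weeks. Every 20-week ratio was above every 10-day ratio. Nfe2, a transcription factor of red cells and platelets, had log2 ratios of -0.07, -0.25, -0.22, -0.38 and -0.88 at 10 days and of 1.29, 1.75, 1.25, 1.40 and 1.58 at 20 weeks. The ages did not overlap, and the change was 1.81 ± 0.29 (adjusted p = 3.3e-05), with -1.50 in the NOD.B10 dye and 0.34 in the NOD dye. The transcription factors Klf1 (1.49) and Gata1 (1.26), which drive red cell genes, also rose in ratio, and so did the membrane skeleton genes Sptb (1.57) and Epb42 (1.55). Tfrc, the transferrin receptor that brings in iron, fell in both dyes, by 1.27 in NOD and by 2.38 in NOD.B10. The globin genes Hba-a1 and Hbb-bt were saturated in the NOD.B10 dye on 5 of 5 arrays at 10 days and were not measured.

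Haem synthesis, the chain of enzymes that makes the oxygen-binding group of haemoglobin, moved with the red cell genes. Of its 8 enzymes 5 rose in ratio, and 7 fell in the NOD.B10 dye and 2 in the NOD dye. Alas2, which catalyses the first and rate-limiting step in red cells, had log2 ratios of 0.34, 0.14, 0.29, -0.03 and -0.57 at 10 days and of 1.25, 1.69, 1.57, 1.18 and 1.40 at 20 weeks. The ages did not overlap, and the change was 1.39 ± 0.36 (adjusted p = 0.0041), with dye changes of -1.68 in NOD.B10 and -0.26 in NOD. Ppox, the last oxidase before iron insertion, rose by 1.68 ± 0.16 (adjusted p = 3.2e-08). Fech, which inserts the iron, fell in both dyes and had a ratio change of 0.82 (adjusted p = 0.05), below the 2-fold minimum. Among the genes of the NOD dye alone, Bnip3l, which directs the removal of mitochondria from maturing red cells, rose in ratio by 1.83 ± 0.19, with 1.28 in the NOD dye.

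The promoters of both lists were read from RefSeq's table of GRCm38.p6, which holds 300 bases a gene from 250 before the transcription start to 50 after it. Where a gene has several starts the first in the table was used. The table held 24 genes of the erythroid list and 23 of the neutrophil list. The letters AGATAA, the core bound by GATA factors, were searched on both strands and lay in 10 of 24 erythroid promoters (41.7%), in 3 of 23 neutrophil promoters (13%) and in 11.4% of all 27025. CCACACCC, the box bound by KLF1, lay in 1 of 24, in 2 of 23 and in 3.57% of all. TTGCNNAA, a C/EBP site, lay in 9 of 23 neutrophil promoters (39.1%), in 2 of 24 erythroid promoters and in 10.8% of all. Camp and Elane hold no TTGCNNAA match in this window. A match describes letters in this window and is not a measured binding site. For each list the 2 members with the largest ratio change among those with a match are shown, with the match in capitals. This choice was made after the matches were known, so the sequences illustrate the letters and support no share. They are Trim10 (chr17:36869324-36869623, plus strand) and Epb42 (chr2:121036828-121037127, minus strand) for AGATAA, of which TTATCT is the reverse complement, and Ngp (chr9:110419558-110419857, plus strand) and Anxa1 (chr19:20390622-20390921, minus strand) for TTGCNNAA.
Trim10: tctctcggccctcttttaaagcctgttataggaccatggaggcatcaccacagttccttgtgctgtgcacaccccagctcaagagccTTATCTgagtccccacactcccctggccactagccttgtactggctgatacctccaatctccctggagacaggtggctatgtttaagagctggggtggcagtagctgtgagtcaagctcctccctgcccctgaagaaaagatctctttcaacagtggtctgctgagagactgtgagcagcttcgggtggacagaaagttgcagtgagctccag
Epb42: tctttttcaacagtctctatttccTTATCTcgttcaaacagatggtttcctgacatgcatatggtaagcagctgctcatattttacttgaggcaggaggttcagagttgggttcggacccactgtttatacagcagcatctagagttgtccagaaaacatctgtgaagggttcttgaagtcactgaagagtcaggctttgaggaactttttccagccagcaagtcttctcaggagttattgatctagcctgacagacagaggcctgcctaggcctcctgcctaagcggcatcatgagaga
Ngp: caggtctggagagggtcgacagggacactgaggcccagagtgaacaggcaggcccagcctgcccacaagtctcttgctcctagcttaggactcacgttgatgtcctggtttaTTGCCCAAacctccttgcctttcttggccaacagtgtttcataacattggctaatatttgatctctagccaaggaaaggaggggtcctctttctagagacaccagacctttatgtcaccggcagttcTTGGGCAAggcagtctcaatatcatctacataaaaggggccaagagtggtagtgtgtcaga
Anxa1: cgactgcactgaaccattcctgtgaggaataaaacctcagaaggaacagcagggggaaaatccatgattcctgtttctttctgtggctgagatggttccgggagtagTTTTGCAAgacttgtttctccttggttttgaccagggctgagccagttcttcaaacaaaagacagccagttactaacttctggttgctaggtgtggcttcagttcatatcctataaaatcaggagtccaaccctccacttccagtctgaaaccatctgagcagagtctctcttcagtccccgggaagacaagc

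Genes of cell division fell with age in both strains, in more members in NOD.B10. Of 28 genes of the G2 and M phases 24 fell in the NOD.B10 dye and 11 in the NOD dye, with 0 rising in either. In ratio 6 rose and 1 fell, with a median of 0.73. Mki67, the proliferation antigen, had log2 ratios of -0.15, -0.30, -0.25, -0.25 and -0.66 at 10 days and of 0.90, 1.43, 0.996, 0.89 and 0.88 at 20 weeks. Its change of 1.34 ± 0.34 (adjusted p = 0.003) lay in the NOD.B10 dye, at -1.29 against 0.09 in NOD. Nusap1, a spindle protein, rose by 1.40 and the kinesins Kif11 and Kif23 by 1.06 and 1.02. Cdc20, the activator of the anaphase-promoting complex, was the member that fell (-1.26), with -2.10 in the NOD dye and -0.87 in the NOD.B10 dye. In the S phase list, which holds DNA replication genes, 17 of 23 fell in NOD.B10 and 14 in NOD, and Tk1, thymidine kinase, alone rose in ratio (1.16). Without replicate 5 of 10 days 3 members of the G2 and M list rose in ratio, and with normexp 2 did.

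**Figure D4:**
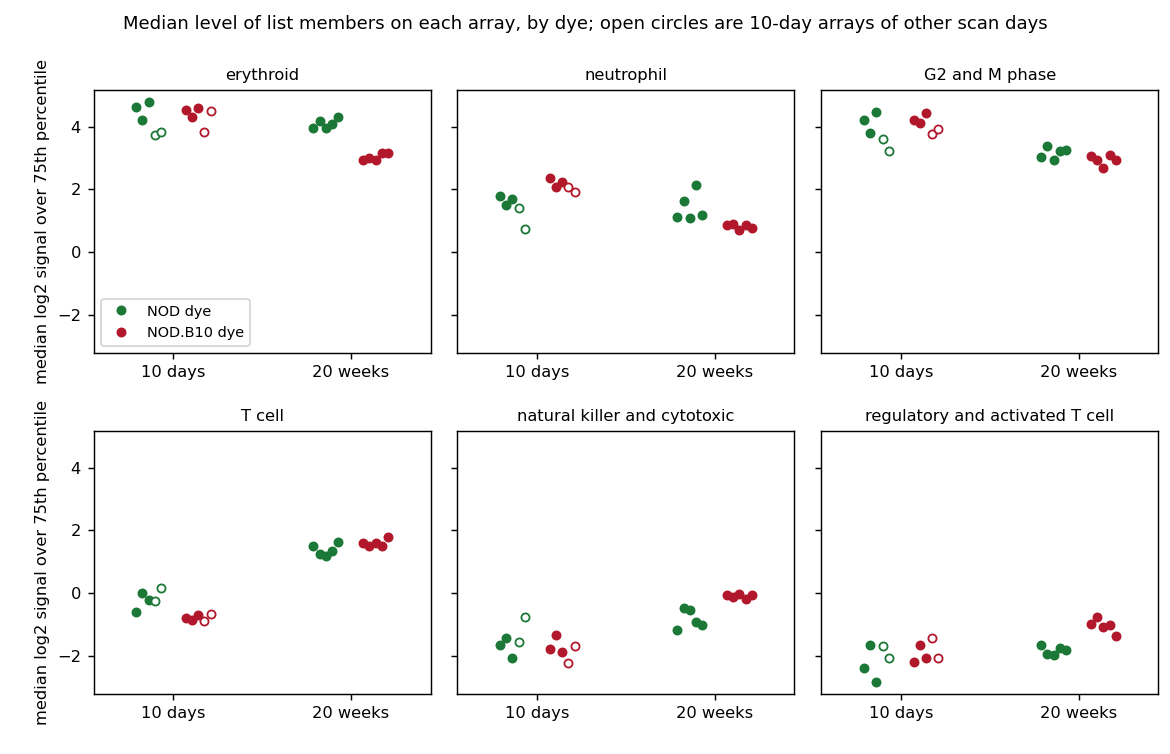
Median level of the members of 6 lists on each array, as log2 signal over the 75th percentile of the dye, at 10 days and 20 weeks, with the NOD dye in green, the NOD.B10 dye in red and open circles for the 10-day replicates 4 and 5. In the erythroid list the NOD.B10 medians drop from between 3.83 and 4.61 to between 2.94 and 3.15. Those of NOD lie between 3.73 and 4.78 at 10 days and between 3.96 and 4.32 at 20 weeks. On the shared scan day alone the 10-day NOD medians lie between 4.22 and 4.78, with a mean of 4.54 against 4.10 at 20 weeks. T cell medians rise in both dyes.

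T cell genes rose in both strains as the spleen matured, and for some the rise was smaller in NOD. Of 27 members 23 rose in the NOD.B10 dye and 18 in the NOD dye, with 0 falling, and the ratio fell for 8 and rose for 0. Cd8a, the co-receptor of cytotoxic T cells, had log2 ratios of 0.64, 1.195, 0.60, 0.60 and 1.12 at 10 days and of -0.55, -0.15, -0.22, -0.19 and -0.49 at 20 weeks. It rose 5.79-fold in NOD.B10 and 2.68-fold in NOD. The ages did not overlap. Its ratio change was -1.15 ± 0.19 (adjusted p = 3.9e-05), -0.55 with the mean of its probes and -0.86 with normexp. Gata3, the regulator of helper T cells, changed by -1.23 (-0.62 with normexp), and Cd3e, a chain of the receptor complex, by -1.16. Cd3g and Lat, a chain and an adaptor of the same pathway, changed by 0.07 and 0.30 in ratio. The Cd4 probe was dim in NOD at 20 weeks, with 2 of 5 spots above background, and its ratio change of -1.60 stands against 1.06 for the gene's other probe. The count of 8 was 4 on the shared scan day, 5 with scan day as a block, and 1 with normexp or with the mean of the probes of a gene.

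More markers of regulatory and activated T cells passed as rising in NOD.B10 than in NOD, with median changes of 1.28 and 0.28. Of 16 tested members 11 rose in the NOD.B10 dye and 3 in the NOD dye. The ratio fell for 7, rose for 0, and was negative for all 16. Ikzf2, the Helios factor of regulatory T cells, stood at log2 ratios of 0.18, 0.06, -0.21, 0.31 and 0.47 at 10 days and of -1.86, -2.32, -1.55, -1.04 and -1.94 at 20 weeks. The ages were apart, and the change was -1.91 ± 0.18 (adjusted p = 2.6e-08). It was -0.44 with the mean of the probes, the others of which ranged from -0.22 to 0.28, and -0.91 with normexp. Gpr83, a receptor of regulatory T cells, changed by -1.70 ± 0.23 (adjusted p = 2.6e-06). Foxp3, the factor that defines these cells, changed by -1.63 ± 0.40 (adjusted p = 0.0024), and its NOD.B10 dye rose 3.63-fold. It was dim, with 3 of 5 NOD spots above background at each age, and with normexp the change was -0.38. Tnfrsf9, a costimulatory receptor at -2.64, was well above background in NOD on 2 of 5 arrays at 20 weeks, and at -0.83 with normexp. Pdcd1 and Tnfrsf18, 2 further receptors of activated T cells, rose in both dyes, and their ratios did not pass (-0.62 and -0.60). With dim genes left out 8 members were tested and 4 fell in ratio, with a median of -0.95. With normexp 3 of 16 fell.

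Genes of natural killer and cytotoxic cells rose in NOD.B10 for 15 of 17 members and in NOD for 9. Ccl5, a chemokine of cytotoxic cells, had log2 ratios of 0.52, 0.57, -0.09, 0.57 and 1.68 at 10 days and of -0.92, -0.92, -0.77, -0.68 and -1.04 at 20 weeks. Every 20-week array was below every 10-day array, and the change was -1.52 ± 0.23 (adjusted p = 1.3e-05), with -0.997 for the mean of its probes, just below the minimum. Ifng, which encodes interferon gamma, changed by -1.39 ± 0.19 (adjusted p = 3.8e-06) with 1.79 in the NOD.B10 dye and 0.43 in the NOD dye. With the mean of probes or normexp it was at -0.85 and -0.68. Klrb1c, the NK1.1 antigen, changed by -1.07 with its brightest probe, 1.11 with its other one and 0.02 with their mean, so its direction is not settled. The ratio fell for 6 members, for 3 on the shared scan day, for 2 without replicate 5 of 10 days, for 3 without replicate 1 of 20 weeks and for 1 with normexp.

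Among genes induced by interferon the ratio fell with age for 7 of 24 members and rose for 1, and fell for 4 on the shared scan day or with normexp. Cxcl10, a chemokine that draws T cells, changed in the NOD dye alone. Its NOD level was 2.48, 2.23, 2.08, 2.31 and 2.54 at 10 days and 0.68, 0.91, -0.03, 0.61 and 0.96 at 20 weeks, and its ratio changed by -1.63 ± 0.19 (adjusted p = 4.2e-07). The NOD.B10 level changed by -0.10. Cxcl9, a related chemokine outside the list, rose in both dyes, 8.48-fold in NOD.B10 and 2.52-fold in NOD (ratio -1.78 ± 0.28, adjusted p = 2.3e-05, and -1.17 with normexp). Gbp5, a guanylate-binding protein outside the list, had the largest ratio drop of the NOD dye alone class among genes measured on every array. Its log2 ratio was 0.63, 0.79, 0.30, 0.37 and 1.73 at 10 days and -1.53, -2.33, -1.22, -1.75 and -1.88 at 20 weeks, a change of -2.50 ± 0.21 (adjusted p = 5.1e-09), or -1.37 with normexp. The NOD dye fell by 1.70 and the NOD.B10 dye changed by 0.77, under the 2-fold minimum. Rsad2, viperin, was the member that rose in ratio (1.30). Without replicate 5 of 10 days the ratio fell for 4 members.

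Genes of antigen presentation rose in both strains, 18 of 26 in NOD.B10 and 16 in NOD, and the ratio fell for 3. H2-Ab1, the beta chain of the class II molecule that differs between the strains, rose 7.2-fold in NOD.B10 and 3.74-fold in NOD. Its ratio change of -0.98 ± 0.22 missed the 2-fold minimum and was -0.48 with the mean of its probes. On the shared scan day it lay between -0.85 and -0.26 over all settings. H2-Aa, H2-Eb1 and Cd74, other genes of the class II pathway, changed by 0.18, 0.24 and 0.50 in ratio. Cfb, complement factor B (-1.59), H2-K1, a class I gene (-1.22), and B2m, its light chain (-1.21), were the 3 that fell, of which Cfb alone did so on the shared scan day. The count was 1 without replicate 5 of 10 days and 5 without replicate 1 or 3 of 10 days. H2-Q8, a non-classical class I gene, fell in ratio by 1.98 ± 0.21 (adjusted p = 8.4e-08), with a rise of 8.56-fold in NOD.B10 and 2.22-fold in NOD. The strains differ in this region and a probe may bind 1 allele better, which was not tested.

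Of 21 B cell genes 9 rose and 1 fell in NOD.B10, and 5 rose and 2 fell in NOD. The ratio fell for 4, for 3 on the shared scan day and for 2 with the mean of the probes. Tnfrsf13c, which binds the survival factor BAFF on B cells, had log2 ratios of 0.96, 1.41, 1.19, 1.26 and 1.43 at 10 days and of -0.47, -0.98, -0.09, -0.31 and -0.37 at 20 weeks. The ages did not overlap, and Tnfrsf13c fell by 1.16 in the NOD dye (ratio -1.69 ± 0.17, adjusted p = 6.2e-08). Ms4a1, the CD20 antigen, changed by -1.18 (-0.68 with the mean of its probes) and Pou2af1, a coactivator of immunoglobulin genes, by -1.05. The immunoglobulin receptor genes Cd79a and Cd79b changed by -0.19 and -0.16. Of 11 precursor B cell genes 5 fell and 1 rose in NOD, and 5 fell and 3 rose in NOD.B10. Among macrophage genes C1qa, a subunit of complement C1q, rose in ratio by 1.18 ± 0.14 (adjusted p = 7.1e-07), with 2.33 in NOD and 1.11 in NOD.B10, and Siglec1, of marginal metallophils, fell in ratio by 1.51 with 2.16 in the NOD.B10 dye. With the mean of its probes Siglec1 was at -0.86 and with normexp at -0.72, below the minimum in both. Among dendritic cell genes Itgax, the CD11c integrin, changed by -1.15, and by -0.97 without replicate 5 of 10 days. Median ratio changes were -0.32 for the 15 dendritic cell genes, 0.04 for the 23 macrophage genes, -0.35 for 14 plasma cell genes and -0.34 for 30 immediate early genes, of which 3, 1, 1 and 5 fell and, of the immediate early and the macrophage genes, 1 each rose. On the shared scan day 1 dendritic cell, 0 plasma cell and 2 immediate early genes fell. Of all genes tested 6.56% fell in ratio and 2.53% rose, with 5.21% falling on the shared scan day. The plasma cell and macrophage counts lie near these shares, as do the counts of the shared scan day. Without replicate 5 of 10 days 1 dendritic cell and 0 plasma cell genes fell, and without replicate 1 of 20 weeks 0 plasma cell genes did.

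Some matrix and smooth muscle genes fell with age, and the ratio fell for 5 of 20 and for 4 of 14. Col1a1, a chain of type I collagen, fell 13.3-fold in NOD and 3.09-fold in NOD.B10. Its NOD level was 5.24, 5.53, 5.88, 5.10 and 4.89 at 10 days and 1.46, 2.14, 1.28, 1.88 and 1.18 at 20 weeks, and its ratio changed by -2.14 ± 0.26 (adjusted p = 8.3e-07). Its 2 other probes gave -0.62 and -0.02, and the mean of all was -0.93. In the stroma list 8 of 20 members fell in the NOD dye and 0 rose, and 6 fell in the NOD.B10 dye and 1 rose, with medians of -0.85 and -0.13. The ratio fell for 4 on the shared scan day, and for 3 without replicate 5 of 20 weeks or with the mean of the probes. Col3a1 and Sparc fell in both dyes, with ratio changes of -0.34 and -0.78 that did not pass. Ccl19, a chemokine of T zone reticular cells, changed by -1.47 ± 0.13 (adjusted p = 8.5e-09). Of 14 smooth muscle genes 6 fell in the NOD dye and 3 in the NOD.B10 dye, and Lmod1, leiomodin, fell in ratio by 1.96 with -2.18 in NOD and -0.25 in NOD.B10, and its ratio change was -1.06 with normexp. With the mean of the probes 2 smooth muscle members fell in ratio. Acta2, smooth muscle actin, changed by -1.33 and Tagln, transgelin, by -1.28, but by -0.29 and -0.53 with the mean of their probes.

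Other genes with the largest changes of their class came from no list. In the NOD dye alone Sntb2, a syntrophin, fell 7.09-fold, with a ratio change of -2.34 ± 0.13 (adjusted p = 1.9e-11), its other probe changed by -0.66, and the mean of both was -1.50. Ehbp1, which links endosomes to actin, fell in the NOD dye by 2.03, with a ratio change of -2.06 and of -0.93 with normexp. Dhrs11, a dehydrogenase, rose in ratio by 2.21 ± 0.25 (adjusted p = 3.8e-07) and Fam117a by 2.01 ± 0.19, with NOD dye rises of 1.37 and 1.30. For Ago1 (-2.15), Pakap (-2.03), Vamp2 (1.85) and Kdelr2 (1.73) the mean of the probes lost the call, at -0.69, -0.44, 0.25 and 0.85. Among genes that changed in the NOD.B10 dye alone Sorl1, a sorting receptor of the endosome, had log2 ratios of 0.18, 0.26, 0.14, 0.61 and 1.28 at 10 days and of -2.15, -2.03, -2.01, -2.66 and -2.51 at 20 weeks. The NOD.B10 level rose 4.33-fold (ratio -2.76 ± 0.27, adjusted p = 4e-08). Rasd2, a small G protein, rose 9.62-fold in NOD.B10, with a ratio change of -2.73 ± 0.25 (adjusted p = 1.3e-08), and Lrrc3b 3.81-fold (-2.68 ± 0.21). With normexp the ratio changes of Sorl1, Rasd2, Lrrc3b and Maob were smaller, at -1.77, -1.50, -1.57 and -1.15. Maob, monoamine oxidase B, changed by -2.71, and its ratio of 3.43 on replicate 5 of 10 days lay far above the other 4. Olfr1497, named as an olfactory receptor, changed by -2.76, but its other probe gave 0.85. Ppp1r15a, which ends the stress block on translation, rose in NOD (1.03) and fell in NOD.B10 (-1.64), with a ratio change of 2.63 ± 0.24 (adjusted p = 2e-08). Parm1, an androgen-regulated mucin-like protein, did the reverse (-1.14 and 1.003, ratio -2.18 ± 0.15, and -1.43 with the mean of its probes).

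Both eosinophil granule genes of the rule fell in both strains. They were the 2 that passed in ratio of 19 tested mast cell, basophil and eosinophil genes. That list had a median ratio change of 0.17, with 11 estimates positive and 8 negative. In the NOD dye 4 of its members fell and 1 rose, and in the NOD.B10 dye 5 fell and 0 rose. Epx, eosinophil peroxidase, fell 22-fold in NOD.B10 and 6.92-fold in NOD, and Prg2, major basic protein, 13.9-fold and 2.95-fold. The ratio of Epx rose by 1.635, but on the shared scan day it lost its call in 10 of 19 settings. The ratio of Prg2 was -0.92, -0.52, -0.97, -0.53 and -2.09 at 10 days and 1.05, 1.05, 1.16, 1.48 and 1.23 at 20 weeks, and it rose by 2.20 ± 0.27 (adjusted p = 8.3e-07). Every 20-week ratio of Prg2 was above every 10-day one, as the rule required. Of 17 platelet genes 2 passed in ratio, Thbs1 (1.48) and Itga2b (1.03), and 1 did without replicate 1, 3 or 5 of 10 days or replicate 5 of 20 weeks. Thbs1 was at 0.12 with the mean of its probes and Itga2b at 0.30 with normexp, both below the minimum. Of 18 genes of perinatal growth 7 fell in each dye. Igf2, the fetal growth factor, changed by -1.12 ± 0.11 (adjusted p = 7.4e-08) through the NOD dye (-1.07, and 0.02 in NOD.B10), but by -0.17 with the mean of its probes. Gpc3, which restrains growth, fell in both and rose in ratio by 1.13 (0.67 with normexp). Of 15 progenitor genes Lmo2, a blood-forming cofactor, rose in ratio (1.67). Spink2 was well above background in NOD on 5 of 5 arrays at 10 days and on 0 of 5 at 20 weeks, a level at least 4.08-fold lower in NOD, and with normexp its ratio change was -0.12.

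Genes of other tissues were present in both dyes. The 24 exocrine pancreas genes had a median ratio change of -2.24, with 0 past the test and 22 rising in the NOD.B10 dye (median 2.77). In the NOD dye 1 rose, and the list's median level ranged from -1.86 to 6.27 over the 10-day arrays and from -0.79 to 6.93 at 20 weeks, against 0.82 to 1.57 and 3.70 to 3.94 in NOD.B10. Without replicate 1 of 20 weeks 5 fell in ratio, without replicate 2 or 4 of 10 days 2 did, and without replicate 5 of 20 weeks 1 did. Of 14 adipose genes 3 fell in ratio, but 1 on the shared scan day or with normexp, and 5 without replicate 2 of 10 days or replicate 3 of 20 weeks. In the NOD.B10 dye 8 rose, and the list's median level ranged from -2.46 to -1.70 at 10 days and from -0.36 to -0.15 at 20 weeks. Whether tissue beside the spleen had a part in other changes was not tested. Defining spleen markers were well above background in both dyes, among them Cd79a, Cd3g and H2-Ab1 on 5 of 5 arrays of each age.

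Some changes had only a bound, because a dye was not well above background. For these the brighter mean was set against the lowest measurable signal of the dim arrays. Such a gene may have passed the filter on dim probes only through the age at which it was bright. The direction of its change therefore supports no conclusion. Dct, an enzyme of melanin synthesis, was well above background in NOD.B10 on 5 of 5 arrays at 10 days and on 0 of 5 at 20 weeks, a level at least 16.6-fold lower. In the NOD dye Dct was measured on 3 of 5 arrays at 10 days and on 0 of 5 at 20 weeks, so its ratio had no measured value at 20 weeks. Mucl2 and Scgb2b26, of secretory glands, were at least 3.21-fold and at least 1.8-fold lower in NOD.B10 at 20 weeks. Plppr4, a lipid phosphatase-related protein of neurons, was at least 2.25-fold lower in NOD at 20 weeks. Olfr175 and Slit1, an axon guidance ligand, were measured in NOD at 20 weeks on 4 and 3 of 5 arrays, with ratio changes of -3.07 and -3.02. With normexp these were -1.13 and -0.96, the latter below the 2-fold minimum, and Olfr175 was at -1.59 with the mean of its probes. The ratio changes of Mucl2, Scgb2b26 and Plppr4 were 0.90, 0.51 and -0.50 with normexp, also below it. In the precursor B cell list Rag1 and Igll1 were at least 4.33-fold and at least 5.09-fold lower in NOD.B10 at 20 weeks, and well above background in NOD on 2 of 5 arrays.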

How the data were processed

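Spleen RNA of both strains was amplified, labelled and hybridised to 2-colour Agilent arrays. Per the file headers, the deposited intensity values are processed signals: spatial detrending removed the background, and linear and LOWESS scaling balanced the dyes. The deposited log10 ratios of the scanner files, per the file headers, are red over green. The series' value table, deposited by the authors, holds the same log10 ratios with the sign turned and served as an alternative. Here log2(green/red) was formed per spot, control spots and outlier flags were left out, and the brightest probe stood for a gene. A probe was kept if it was well above background in either dye on all arrays of at least 1 age. Age means over all 27 arrays were fitted with limma and Benjamini-Hochberg adjustment, and a call needs an adjusted p under 0.05 and a log2 change of at least 1. Each dye alone was scaled to its 75th percentile and fitted likewise. By rule, genes named from no list are those with the largest ratio change in each direction within each dye class, called in both fits, with ages that do not overlap. From each list the rule takes the called members with the largest change, and other members were added after their values were seen. Some genes that the rule names are not reported here. The members, lists and tests were chosen with earlier results of these data known. Replicate numbers did not pair the arrays, with correlations of -0.037 to 0.127. Alternatives covered background correction, scaling, filters, probes, scan day and each array left out.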

Additional observations from a re-analysis of the deposited data

Results flagged for a closer look

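In each age group of 5 arrays, an array was set apart where its gap to the nearest other exceeded the critical share of the range. Of 296 groups examined 31 had such an array, and chance sets apart about 1 in 20. Replicate 5 of 10 days held 22, replicate 2 of 20 weeks 7, and replicate 3 of 20 weeks and replicate 2 of 10 days 1 each.

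On replicate 5 of 10 days the log2 ratio was low for Elane (-1.69), Prg2 (-2.09), Epx (-2.38), Lrrc3b (-0.44), Igll1 (-1.86) and Cdc20 (-0.37). It was high there for Maob (3.43), Pck1 (6.66), Cfb (2.56), H2-K1 (1.92), B2m (1.34), Klrb1c (1.05), Il7r (0.74), Gata3 (0.98), Lef1 (1.23), Gpr83 (1.40), Igf2 (0.61), Afp (1.92) and Fkbp11 (1.31). The list medians on this array were -0.93 for mast cells, basophils and eosinophils, 0.45 for plasma cells and 0.79 for immediate early genes.

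On replicate 2 of 20 weeks the ratio was high for Mki67 (1.43), Tk1 (1.41), Rrm1 (0.99) and Lum (-0.86). Its list medians were 1.27 for erythroid genes, 0.23 for S phase and 0.60 for G2 and M phase. H2-Q8 stood at -1.82 on replicate 3 of 20 weeks and Mucl2 at -1.85 on replicate 2 of 10 days.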

How the results depend on the processing

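For the ratio over all arrays, 480 genes changed with normexp and 1322 with dim genes left out, against 2281. On the shared scan day these were 365 and 1077, against 1808. With the replicate block on that day limma called 0 genes, with 6940 at an unadjusted p under 0.05. That fit held 8 arrays, and replicates 4 and 5 of 20 weeks had no 10-day partner in it. It leaves few degrees of freedom, so its count of 0 cannot say how many genes changed. The block changed 1788 genes in the NOD dye, against 3225, and changed no other total by over 1.5 times. Leaving out each array gave 2049 to 2559 genes over all arrays and 1604 to 1936 on the scan day. For the dyes alone it gave 2907 to 3766 for NOD and 2847 to 3262 for NOD.B10. Without both 10-day arrays of other scan days, an alternative added after seeing the data, 1546 changed, 1399 of them among the 2281. The precursor B cell median turned to 0.0956 with normexp. With the mean of probes Klrb1c turned to 0.0184, and to 0.133 on the scan day. The macrophage median on the scan day was -0.0227 without replicate 3 of 10 days and 0.196 without replicate 2. The cause of these shifts was not tested. Each array has its own slide, so no slide block was run. Dim and saturated spots limit the precision.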

Other observations

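Genes named as olfactory receptors, a list added after values were seen, were near background in most cases, with 23 of 781 measured on every array in both dyes. Their median ratio change was -0.02, and of the 781 genes 13 rose and 42 fell in ratio. Both are smaller shares than the 2.53% that rose and the 6.56% that fell among all genes tested.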
